A study of Homo sapiens with 16 samples.

Results

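The sites described here were the places where SMAD2/3 was found in A375 melanoma cells after TGFB1 and not in vehicle-treated cells, and where ATF3 and JUNB were found as well. A site belonged to the set when its SMAD2/3 peak of TGFB1-treated cells lay on chromosomes 1 to 22 or X, overlapped no SMAD2/3 peak of vehicle-treated cells and no MITF peak of TGFB1-treated cells, and shared at least 1 bp with both an ATF3 and a JUNB peak of TGFB1-treated cells. Of 11406 deposited SMAD2/3 peaks of TGFB1-treated cells, 11302 were distinct intervals on these chromosomes. Of those, 10714 overlapped no vehicle SMAD2/3 peak, 9560 of these overlapped no MITF peak either, and 3789 of these held both ATF3 and JUNB. The members were thus chosen by the SMAD2/3 calls of both treatments and the MITF, ATF3 and JUNB calls with TGFB1, whose values are given as descriptions. These 3789 members were 33.5% of the SMAD2/3 sites of TGFB1-treated cells. The share of SMAD2/3 peaks that overlapped no vehicle SMAD2/3 peak, on which the choice of members rests, was 94.8% over the list.

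The data were chromatin immunoprecipitation sequencing (ChIP-seq) peak lists from A375, an established human melanoma line. In the TGFB1 group, after 2 h of starvation, cells received the ligand at 10 ng/mL for 2 h; in the vehicle group starved cells received 4 mM HCl with 1 mg/mL BSA for the same time. Antibodies (10 µg each) against SMAD2/3, H3K27ac, MITF, ATF3 and JUNB each had 1 library per treatment, with fragments of 200 to 300 bp, and 6 inputs were not analysed here. The labels carry 3 experiment dates, one for SMAD2/3 with H3K27ac, one for MITF and one for ATF3 with JUNB, and each TGFB1 library shares its date with its vehicle library. Technical triplicates are mentioned in the design text while the labels list 1 library per antibody and treatment, so no value below has a replicate check and no p-value was computed.

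SMAD2 and SMAD3 are transcription factors that the activated TGF-beta receptors phosphorylate; they then enter the nucleus with SMAD4 and bind short, weak DNA sequences, usually together with other factors. ATF3 and JUNB belong to the AP-1 superfamily of leucine-zipper proteins, which bind as pairs to the heptamer TGACTCA or, for some pairs, to the longer octamer TGACGTCA. AP-1 takes part in responses to growth factors and stress, and in melanoma it is known from dedifferentiated cell states. H3K27ac, acetylation of a histone H3 lysine, marks active promoters and enhancers.

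Promoter windows in which a member's SMAD2/3 summit lay are shown first, since they are the members whose DNA letters could be read. The windows run 5′ to 3′ on the gene's strand, from 250 bases before to 50 bases after the gene start, and come from RefSeq (GRCh38.p14). Capitals mark TGACTCA or its reverse complement TGAGTCA, the octamer TGACGTCA, and the inverted SMAD repeat GTCTAGAC, and positions count from 1 at the 5′ end. The first 4 windows belong to the 6 members of highest SMAD2/3 −log10 p among those with a summit in a window. NDST1, a heparan sulfate sulfotransferase gene, has its window at chr5:150497529-150497828 on the plus strand, with the SMAD2/3 summit at position 198 and TGAGTCA at position 204. LOC124906269, an uncharacterised locus, has its window at chr3:115790851-115791150 on the plus strand, with the summit at 97, TGACTCA first at 91 and again at 108, and the inverted repeat further on. KCNMA1-AS3, an antisense RNA gene of a potassium channel locus, has its window at chr10:77350622-77350921 on the plus strand, with the summit at 247 and TGACTCA at 256 and 268. HES1, a transcriptional repressor known as a Notch target, has its window at chr3:194135898-194136197 on the plus strand and holds none of these letters. The other 2 were chosen after their values were seen, to show the octamer. ZBTB38, a zinc finger repressor gene, has its window at chr3:141368254-141368553 on the plus strand, with the summit at 90, TGACTCA at 185 and TGACGTCA at 202. TUBB2A, a beta-tubulin gene, has its window at chr6:3157495-3157794 on the minus strand, with the summit at 270 and TGACGTCA at 191.
NDST1: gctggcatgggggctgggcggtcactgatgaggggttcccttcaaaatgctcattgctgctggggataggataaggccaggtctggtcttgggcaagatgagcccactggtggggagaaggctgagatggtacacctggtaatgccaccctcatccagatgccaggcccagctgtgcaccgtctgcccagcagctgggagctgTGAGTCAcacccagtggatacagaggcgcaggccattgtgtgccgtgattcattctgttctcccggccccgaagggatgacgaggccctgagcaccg
LOC124906269: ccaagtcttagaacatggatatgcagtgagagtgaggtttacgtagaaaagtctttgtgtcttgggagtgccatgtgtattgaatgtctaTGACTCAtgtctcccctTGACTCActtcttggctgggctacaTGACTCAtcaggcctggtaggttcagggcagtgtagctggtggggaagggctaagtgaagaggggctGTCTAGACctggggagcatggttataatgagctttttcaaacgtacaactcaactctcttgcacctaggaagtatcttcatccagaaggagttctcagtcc
KCNMA1-AS3: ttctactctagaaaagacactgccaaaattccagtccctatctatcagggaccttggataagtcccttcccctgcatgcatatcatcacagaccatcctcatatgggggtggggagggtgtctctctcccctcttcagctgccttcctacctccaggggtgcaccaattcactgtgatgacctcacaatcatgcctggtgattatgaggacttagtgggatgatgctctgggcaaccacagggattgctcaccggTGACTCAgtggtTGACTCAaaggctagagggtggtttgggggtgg
HES1: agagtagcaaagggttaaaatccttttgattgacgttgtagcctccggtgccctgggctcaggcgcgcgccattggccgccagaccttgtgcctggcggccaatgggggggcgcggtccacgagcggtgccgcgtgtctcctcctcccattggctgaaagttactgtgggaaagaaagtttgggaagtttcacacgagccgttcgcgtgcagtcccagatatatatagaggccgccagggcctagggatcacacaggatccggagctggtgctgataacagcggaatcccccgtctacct
ZBTB38: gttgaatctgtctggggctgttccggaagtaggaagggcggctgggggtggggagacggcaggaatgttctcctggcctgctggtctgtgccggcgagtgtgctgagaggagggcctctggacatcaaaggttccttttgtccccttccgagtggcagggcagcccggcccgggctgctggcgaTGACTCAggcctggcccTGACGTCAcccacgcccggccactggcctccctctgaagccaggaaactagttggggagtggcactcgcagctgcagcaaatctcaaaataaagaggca
TUBB2A: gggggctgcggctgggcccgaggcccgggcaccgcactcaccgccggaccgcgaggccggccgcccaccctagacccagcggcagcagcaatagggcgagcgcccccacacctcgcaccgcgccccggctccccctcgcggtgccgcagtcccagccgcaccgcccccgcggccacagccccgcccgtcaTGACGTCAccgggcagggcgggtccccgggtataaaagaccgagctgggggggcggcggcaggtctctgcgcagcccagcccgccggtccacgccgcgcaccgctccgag

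The NDST1 member, at chr5:150497544-150497945, had an SMAD2/3 fold enrichment of 13.6, a JUNB fold of 18.1 and an ATF3 fold of 15.4 in TGFB1-treated cells. JUNB and ATF3 peaks of vehicle-treated cells and H3K27ac peaks of both treatments overlapped it. At LOC124906269 the SMAD2/3 fold was 14.3, the JUNB fold 34.9 and the ATF3 fold 9.92, with a JUNB peak and no ATF3 peak in vehicle. At KCNMA1-AS3 the SMAD2/3 fold was 13.8, the JUNB fold 27.1 and the ATF3 fold 36.1, with both factors also called in vehicle, and an H3K27ac peak with TGFB1 and none with vehicle. The HES1 member had an SMAD2/3 fold of 17.8 with a JUNB fold of 5.03 and an ATF3 fold of 4.97, and neither factor was called there in vehicle, nor did an H3K27ac peak of either treatment overlap it. The ZBTB38 member had an SMAD2/3 fold of 12.2, a JUNB fold of 19.5 and an ATF3 fold of 30.1, and both factors were called in vehicle. The TUBB2A member had an SMAD2/3 fold of 7.20, a JUNB fold of 3.39 and an ATF3 fold of 5.78, and neither factor was called in vehicle. In these examples the windows with TGACTCA or TGAGTCA were those with JUNB in vehicle, while HES1 and TUBB2A lacked both the heptamer and vehicle AP-1. The other members of the 6 strongest, at the starts of USP3 and LOC124904049, held none of the capitalised patterns and had JUNB peaks in vehicle, so that vehicle JUNB peaks were also found at windows without the heptamer.

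A fold enrichment is the authors' value for a peak, its pileup of reads over the local background, and it was used to describe and rank peaks within 1 list. Folds of different lists stand side by side below without being compared. Library sizes implied by the peak values were 10.2 M reads with TGFB1 and 9.37 M with vehicle for SMAD2/3, 23.2 M and 21.5 M for H3K27ac, and 47.7 M and 34.1 M for JUNB. For ATF3 they were 28.1 M with TGFB1 and 6.37 M with vehicle, a ratio of 4.41, so that an ATF3 peak called with TGFB1 alone cannot be told apart from the deeper library. Shares carry 95% Wilson intervals over peaks, and differences of shares carry Newcombe intervals; both cover counting error only.

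By median fold enrichment, the SMAD2/3 peaks of the members were stronger than those of the other classes, but not by −log10 p. The median −log10 p was 12.4 both at members and at sites with MITF, and 16.6 at sites called in vehicle. Median folds at sites with MITF and at sites called in vehicle were 5.68 and 4.74. For the members the fold is given next. The members' median fold was 6.56 (quartiles 5.14 and 8.88, range 2.52 to 48.8). It was 5.69 at the 1976 TGFB1-only sites with JUNB and without ATF3, 5.33 at the 333 with ATF3 and without JUNB, and 5.20 at the 3462 with neither. Members made up 44.3% of the sites in the strongest of 4 equal bins of the SMAD2/3 list by −log10 p and 23.2% of those in the weakest. The median peak rested on 18 reads at its summit and was 293 bp wide, against 260 bp at sites with neither factor. Median widths were 338 bp at sites with MITF and 388.5 bp at sites called in vehicle. The rule used the SMAD2/3 calls, so these values are given as a description. A wider peak can meet more peaks of the other lists, and the part of width in the choice of members was not tested. At the edge of the rule, 81 members shared under 50 bp with one of the partner peaks. Their median SMAD2/3 fold was 4.93, against 4.90 at 113 sites outside the set that had both factors within 100 bp without overlapping both. JUNB overlaps had a median length of 254 bp and ATF3 overlaps 222 bp, so most members lay far from that edge. Among the members, 80 shared their strongest JUNB peak with another member, and 56 their strongest ATF3 peak, so members are not all independent places.

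The strongest members lay away from gene ends, in gene bodies or between genes. The member of highest SMAD2/3 −log10 p, at chr4:188444610-188445660 with a fold of 47.0, had no protein-coding gene within 100 kb, the nearest being TRIML1 at 294 kb. Of the 20 members of highest −log10 p, 6 were as far from genes, as were 552 of all members (14.6%), and the genes named next are those of the 20 strongest with a gene within 100 kb. The first of these was at chr3:194002905-194003975, 66.8 kb outside LOC102724877, with a fold of 48.8 from 110 reads. It overlapped H3K27ac peaks of fold 18.7 with TGFB1 and 5.55 with vehicle, a JUNB peak of fold 13.9 with TGFB1 and 10.9 with vehicle, and an ATF3 peak of fold 3.70 with TGFB1 and none with vehicle. Next came a site in the gene body of AOPEP at chr9:95091976-95092995, with an SMAD2/3 fold of 33.4. It had a JUNB fold of 19.1 with TGFB1 and 9.13 with vehicle, an ATF3 fold of 5.13 with TGFB1 alone, and an H3K27ac peak of fold 11.6 with TGFB1 and none with vehicle. AOPEP encodes an aminopeptidase and is the host of a microRNA cluster taken up below.

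Near LTBP2, whose secreted product belongs to the latent TGF-beta binding proteins of the matrix, a member lay 7.58 kb outside the gene at chr14:74619336-74620249. Its SMAD2/3 fold was 34.1, its JUNB fold 23.4 with TGFB1 and 11.6 with vehicle, its ATF3 fold 7.67 with TGFB1 alone, and its H3K27ac fold 42.1 with TGFB1 and 15.7 with vehicle. TGFBI, whose secreted matrix protein was named for its induction by TGF-beta, had a member 8.40 kb outside the gene at chr5:136020391-136020868. There the SMAD2/3 fold was 30.5, the JUNB fold 18.2 with TGFB1 and 14.8 with vehicle, the ATF3 fold 10.1 with TGFB1 alone, and the H3K27ac fold 31.4 with TGFB1 and 10.0 with vehicle. PMEPA1, an inhibitor of TGF-beta signalling that the pathway itself induces, had a member 61.3 kb from the gene at chr20:57772339-57773123. Its SMAD2/3 fold was 26.5, its JUNB fold 20.5 with TGFB1 and 6.90 with vehicle, and its ATF3 fold 6.02 with TGFB1 alone. MMP2, a gelatinase that degrades matrix, held a member at chr16:55499803-55500531 with an SMAD2/3 fold of 20.8 and an H3K27ac fold of 36.1 with TGFB1 and 9.67 with vehicle. All 4 places had JUNB and H3K27ac in vehicle-treated cells, and none had ATF3 there.

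A second kind of strong member had ATF3 in both treatments. NUAK1, a kinase related to AMPK, had a member 32.7 kb outside the gene at chr12:106030437-106031049 with an SMAD2/3 fold of 45.8, an ATF3 fold of 21.3 with TGFB1 and 6.80 with vehicle, and a JUNB fold of 17.6 with TGFB1 and 20.3 with vehicle. A member 5.51 kb outside CRTC1, a coactivator of CREB, had an SMAD2/3 fold of 17.9 and an ATF3 fold of 15.8 with TGFB1 and 14.4 with vehicle. SSH1, a phosphatase that activates the actin-severing protein cofilin, held a member with an SMAD2/3 fold of 24.3, an ATF3 fold of 16.7 with TGFB1 and 4.04 with vehicle, and MITF in vehicle at fold 8.25. COA1, BCAN, PEDS1-UBE2V1 and CRTAC1 were the other genes of the 20 strongest with ATF3 in vehicle. The remaining ones were NTSR1, PLPP4, CACHD1, CPE, LOC124902048, TIAM2 and DPT. CACHD1 was the exception for JUNB and H3K27ac: its member, at chr1:64623748-64624231 with an SMAD2/3 fold of 28.2, overlapped no H3K27ac peak in either treatment and no JUNB or ATF3 peak in vehicle. Of the 20 strongest members with a gene within 100 kb, 19 had JUNB and 7 had ATF3 in vehicle, 17 had H3K27ac in both treatments, 2 with TGFB1 alone and 1 in neither, and none had its summit within 1 kb of the end of a protein-coding gene.

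JUNB was called at most members in vehicle-treated cells as well, and ATF3 was called there at fewer of them. A vehicle JUNB peak overlapped 3174 members, 83.8% (82.6 to 84.9), while the share over all 11302 SMAD2/3 sites was 47.7%. It overlapped 52.2% (50.0 to 54.4) of the sites with JUNB and without ATF3, 15.9% of those with ATF3 and without JUNB, 3.32% of those with neither, 66.6% of the TGFB1-only sites with MITF and 43.2% of the sites called in vehicle. Since the rule asks for JUNB with TGFB1, the sites with JUNB and without ATF3 are the closest comparison, and the members exceeded them by 31.6 percentage points (29.1 to 34.1). A vehicle ATF3 peak overlapped 1080 members, 28.5% (27.1 to 30.0), and 18% of all sites. The share was 27.9% at sites with ATF3 and without JUNB, a difference of 0.58 points (−4.67 to 5.35), and 4.05% at sites with JUNB and without ATF3.

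**Figure D1:**
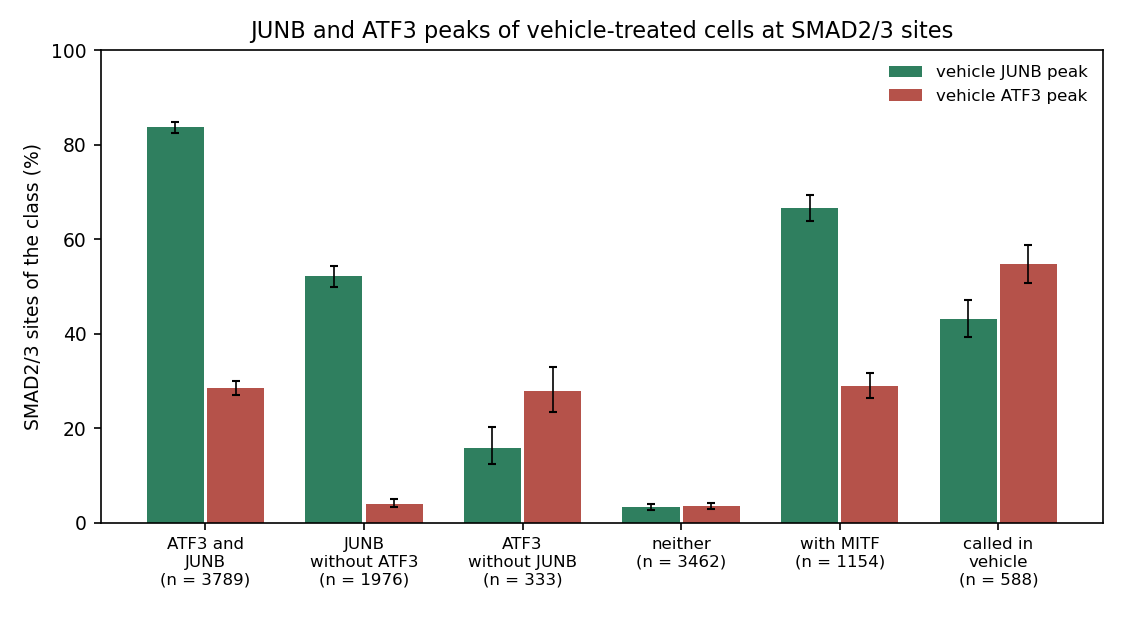
Share of SMAD2/3 sites of TGFB1-treated cells (percent, vertical axis) that overlapped a JUNB (green) or ATF3 (red) peak of vehicle-treated cells, for members (left) and 5 other classes, with 95% Wilson intervals and the number of sites under each class. Vehicle JUNB was at 83.8% of members and 52.2% of sites with JUNB and without ATF3, and vehicle ATF3 at 28.5% and 4.05% of them.

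By vehicle state, 2211 members (58.4%) had JUNB without ATF3, 963 (25.4%) had both, 498 (13.1%) had neither and 117 (3.09%) had ATF3 without JUNB. Members with neither in vehicle had weaker peaks with TGFB1, with a median JUNB fold of 6.07 and a median ATF3 fold of 5.53, against 15.6 and 13.6 at members with both. Of the 615 members without an overlapping vehicle JUNB peak, the JUNB peak with TGFB1 still touched a vehicle JUNB peak outside the SMAD2/3 interval at 43, 6.99% (5.23 to 9.29). The same held for ATF3 at 96 of 2709, 3.54% (2.91 to 4.31).

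The JUNB peaks at members were among the strongest of their list, and peak strength moved with the vehicle call. Their median JUNB fold was 12.8, a median percentile of 90.4 within the JUNB list, against a fold of 6.10 at sites with JUNB and without ATF3. Where sites with MITF held JUNB, its median fold was 11.3 (percentile 87.7), near that of members. At sites called in vehicle it was 4.47 (percentile 71.3). Of the JUNB peaks at members, 74.5% were in the strongest of 4 equal bins of the list by −log10 p. Within that bin 95.7% (94.9 to 96.4) also overlapped a vehicle JUNB peak, against 90.9% (88.3 to 92.9) of the JUNB peaks at SMAD2/3 sites without ATF3, 90.7% (90.1 to 91.3) of those with ATF3 and no SMAD2/3, and 81.9% (80.6 to 83.1) of those with neither. Taken within the 4 bins of JUNB strength, weighted as in the members, the difference of 31.6 points between members and sites with JUNB and without ATF3 was 7.57 points. Among all JUNB peaks of TGFB1-treated cells 58.2% overlapped no vehicle JUNB peak. For ATF3 the members' peaks had a median fold of 7.28 (percentile 68.3), against 5.78 (percentile 53.0) at sites with ATF3 and without JUNB. It was 7.71 (percentile 75.6) at sites with MITF that held ATF3, and 4.51 (percentile 87.9) at such sites called in vehicle. Of all ATF3 peaks of TGFB1-treated cells, 77.7% overlapped no vehicle ATF3 peak. In the strongest of 4 bins of ATF3 peaks 57.3% (54.8 to 59.8) of those at members overlapped a vehicle ATF3 peak, and 58.1% (57.3 to 58.8) of that bin of the whole list. It was 75.2% (66.0 to 82.6) of the ATF3 peaks of that bin at SMAD2/3 sites without JUNB, above the share at members.

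The members with the strongest JUNB peaks included both sites near ANKRD10, about 50 kb outside the gene, which shared 1 JUNB peak of fold 44.4 with TGFB1 and 31.5 with vehicle. LAMC1, a laminin chain gene, had a member 32.8 kb outside it with a JUNB fold of 48.0 with TGFB1 and 24.8 with vehicle and no H3K27ac peak. PLEC, the cytoskeletal linker plectin, had a JUNB fold of 45.0 with TGFB1 and 21.8 with vehicle. TNFRSF12A, the TWEAK receptor, had a JUNB fold of 44.8 with TGFB1 and 20.9 with vehicle at a site 0.092 kb outside the gene. WNT7B, a WNT ligand gene, had a JUNB fold of 35.4 with TGFB1 and 47.3 with vehicle. SMAD2/3 folds at these 6 sites ran from 5.71 at LAMC1 to 23.6 at WNT7B, so not all of them were strong SMAD2/3 sites. Over the members, the median JUNB fold was 9.97 in the weakest of the 4 bins of SMAD2/3 peaks and 15.2 in the strongest. The ATF3 peaks of highest −log10 p at members were near MMP17, a membrane-bound matrix metalloproteinase gene, with a fold of 78.4 with TGFB1 and 90.6 with vehicle, and in ATF3 itself, with 67.5 with TGFB1 and 103 with vehicle. The others were near SERPINA5 and in FNDC3B, HIPK2 and ABTB2, with folds of 68.2 to 96.7 with TGFB1 and 33.4 to 78.4 with vehicle. All 6 had an ATF3 peak in vehicle, and MMP17 and ABTB2 had no JUNB peak in vehicle.

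H3K27ac peaks of TGFB1-treated cells overlapped 79.4% of members (78.1 to 80.7), and most of these sites had a vehicle peak as well. H3K27ac peaks of both treatments overlapped 2611 members, 68.9% (67.4 to 70.4), a TGFB1 peak without a vehicle peak overlapped 399, 10.5% (9.59 to 11.5), a vehicle peak alone 80, 2.11% (1.70 to 2.62), and none 699, 18.4% (17.2 to 19.7). Over all SMAD2/3 sites 76.3% had H3K27ac with TGFB1, 68.2% in both treatments, 8.08% with TGFB1 alone and 21.9% none. H3K27ac in both treatments was at 70.1% of sites with JUNB and without ATF3, and 73.3% of those with ATF3 and without JUNB. It was at 82.1% of sites with MITF, 66.6% of sites with neither and 35.9% of sites called in vehicle. Of the 399 members, 176 (4.65% of members) lay in an H3K27ac peak that overlapped no vehicle H3K27ac peak at all, and 223 (5.89%) in a part of a peak that was shared with vehicle elsewhere along its length. The share of new peaks over all SMAD2/3 sites was 3.78%, and 21.8% of all H3K27ac peaks of TGFB1-treated cells overlapped no vehicle peak. At sites with JUNB and without ATF3 the share of new peaks was 4.71% (3.86 to 5.73), close to that of members. Away from gene ends it was 5.11% of members, 5.98% of those sites and 4.56% of sites with neither.

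**Figure D2:**
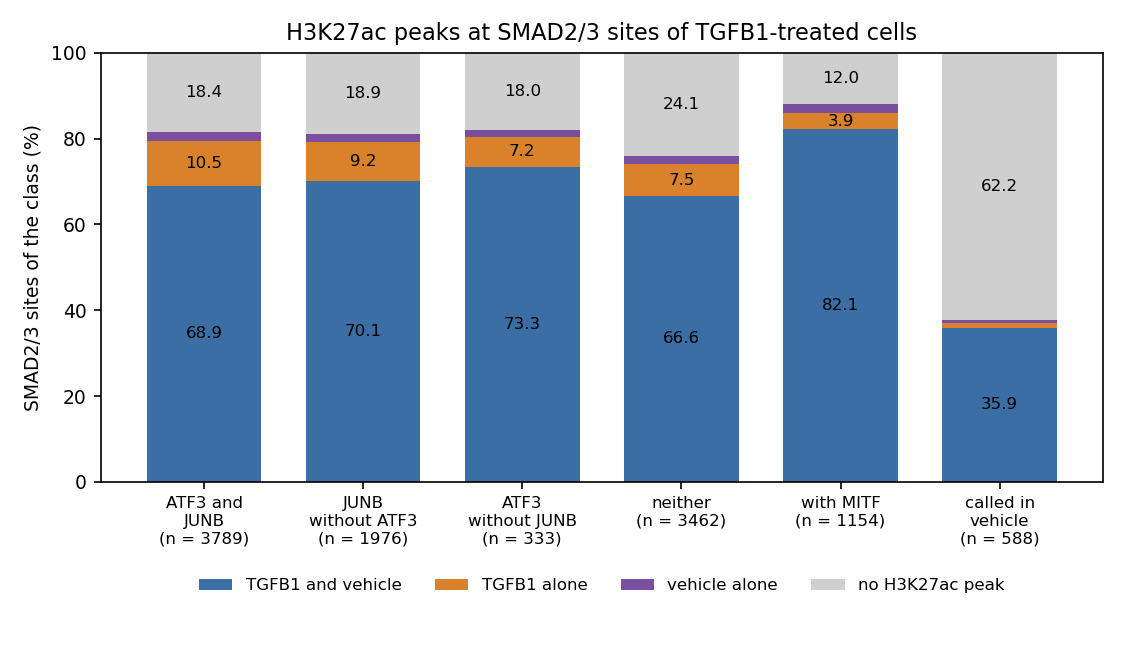
H3K27ac peaks at SMAD2/3 sites of TGFB1-treated cells, as the percent of sites (vertical axis) with H3K27ac in both treatments (blue), with TGFB1 alone (orange), with vehicle alone (purple) or with no H3K27ac peak (grey), for members (left) and 5 other classes. Members had H3K27ac with TGFB1 alone at 10.5% of sites, against 7.45% of the sites with neither factor.

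H3K27ac with TGFB1 alone was more frequent at members than at sites with neither factor, by 3.08 points (1.76 to 4.39), with 10.5% against 7.45%. Against the sites with JUNB and without ATF3, at 9.16%, the difference was 1.37 points (−0.28 to 2.94), whose interval includes 0. Against the sites with MITF, at 3.90%, it was 6.63 points (5.05 to 8.04). Gene ends differed between classes, and away from them the shares were 11.6% of members and 9.70% of sites with neither, a difference of 1.86 points (0.27 to 3.41). Within the 4 bins of SMAD2/3 strength the difference was 2.03 points. In the strongest bin the 2 shares were 10.6% of members and 11.1% of sites with neither, while in the other 3 bins the members' share was the higher one.

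For H3K27ac in both treatments the comparison turned with the way sites were counted. By any overlap of the SMAD2/3 peak the share was 68.9% of members and 66.6% of sites with neither, a difference of 2.30 points (0.15 to 4.45), whose interval included 0 under a stricter peak threshold (0.46 points, −2.18 to 3.10). When the SMAD2/3 summit itself had to lie inside the H3K27ac peak, the shares were 37.4% (35.9 to 39.0) of members and 53.6% (51.9 to 55.2) of sites with neither. Away from gene ends they were 32.5% (30.9 to 34.1) and 39.6% (37.8 to 41.5). No H3K27ac peak held the summit of 49.3% (47.7 to 50.9) of members and of 37.8% (36.2 to 39.4) of sites with neither. Member summits thus lay inside such peaks less often, although their SMAD2/3 peaks overlapped them, while H3K27ac with TGFB1 alone held 9.82% of member summits and 6.61% of theirs. Among the 699 members without an overlapping H3K27ac peak, 469 (67.1%) had one within 500 bp, and 6.07% of members (5.35 to 6.88) had none that near, against 16.9% of sites with neither.

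H3K27ac peaks at members were broader and stronger than the list as a whole, as were those at the other SMAD2/3 sites. With TGFB1 their median fold was 16.2 and their median width 1558 bp, against 6.28 and 484 bp over that list. In the other 5 classes the median fold was higher, from 17.5 at sites with ATF3 and without JUNB to 20.5 at sites with MITF, and the median width ran from 1522 to 1796 bp. Away from gene ends the median fold was 15.1 at members, 14.7 at sites with JUNB and without ATF3, 13.5 at sites with ATF3 and without JUNB, 13.9 at sites with neither, 17.9 at sites with MITF and 16.2 at sites called in vehicle. The members in new H3K27ac peaks of highest −log10 p were near LOC124906252, YEATS4, FZD2, TGFB2, PARN, ITPR3, PRR23E and COL5A1. At YEATS4, which encodes a reader of acetylated histones, the H3K27ac fold was 28.2 with TGFB1 with no vehicle peak, the SMAD2/3 fold 20.7 and the JUNB fold 33.4 with TGFB1 and 21.9 with vehicle. At TGFB2, which encodes a TGF-beta ligand, a member at chr1:218374607-218375367 had an H3K27ac fold of 15.7 with TGFB1 alone, an SMAD2/3 fold of 18.8 and a JUNB fold of 21.96 with TGFB1 and 7.52 with vehicle. FZD2, a WNT receptor gene, had a member 26.3 kb outside the gene with an H3K27ac fold of 22.6 with TGFB1 alone and an SMAD2/3 fold of 8.53. COL5A1, a fibrillar collagen gene, and PARN, a poly(A) nuclease gene, had new H3K27ac peaks of fold 14.4 and 19.99 at members without JUNB or ATF3 in vehicle. The other 6 had JUNB in vehicle, and none of the 8 had ATF3 there. Over the 399 members with H3K27ac with TGFB1 alone, 85.2% (81.4 to 88.4) had JUNB and 24.6% (20.6 to 29.0) had ATF3 in vehicle. Among members acetylated in both treatments, 82.4% (80.9 to 83.8) had JUNB and 29.9% (28.2 to 31.7) had ATF3 in vehicle. No interval was computed for these differences, and overlap of the separate intervals does not show that the shares are equal.

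The 3 summits lay close together. The median distance was 41 bp between SMAD2/3 and JUNB summits, 57 bp between SMAD2/3 and ATF3 summits, and 39 bp between JUNB and ATF3 summits. All 3 lay within 100 bp at 2278 members, 60.1% (58.6 to 61.7). At the 3703 members without tied summits, JUNB was the middle summit at 41.9% (40.3 to 43.5), SMAD2/3 at 29.7% (28.2 to 31.2) and ATF3 at 28.4% (26.98 to 29.9). The distance between SMAD2/3 and JUNB had a median of 62 bp in the weakest of the 4 bins of SMAD2/3 peaks and 34 bp in the strongest. SMAD2/3 and JUNB summits were 55.5 bp apart (median) at sites with JUNB and without ATF3. SMAD2/3 and ATF3 summits were 98 bp apart at sites with ATF3 and without JUNB. Where sites with MITF held these factors, the medians were 45 bp to JUNB and 60 bp to ATF3, near those of members. At sites called in vehicle they were 60 bp and 68 bp. The rule asks for overlapping peaks, which limits how far apart the summits can be. Fragments were 200 to 300 bp long, so distances of this size do not separate binding to 1 sequence from binding to neighbouring ones.

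**Figure D3:**
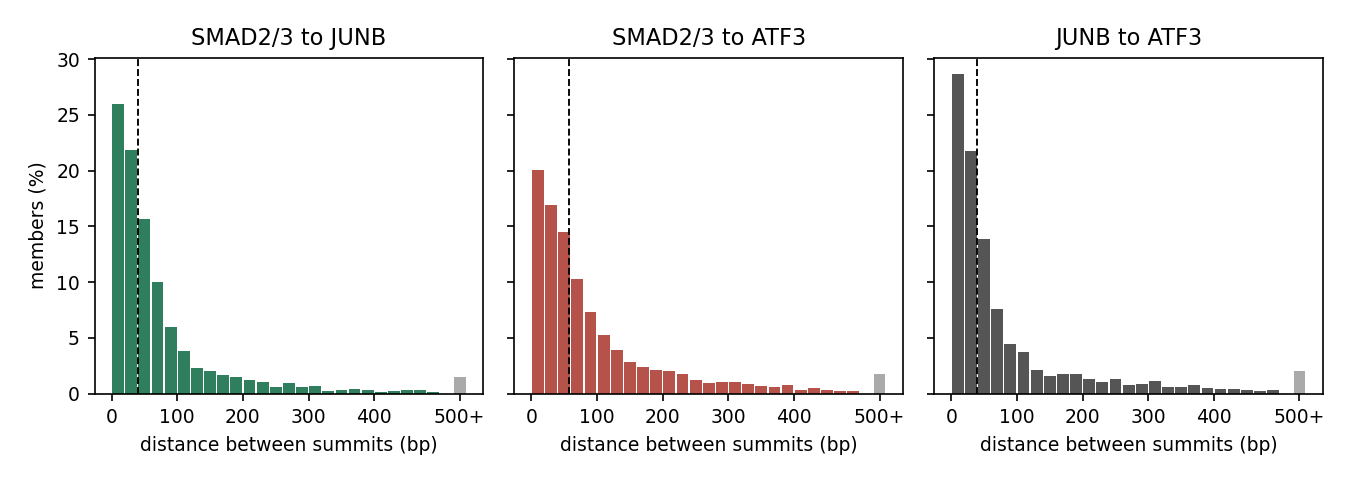
Distance between summits (bp, horizontal axis) at the 3789 members, as the percent of members (vertical axis) in bins of 20 bp, with distances of 500 bp or more in the grey bar and the median as a dashed line. The medians were 41 bp for SMAD2/3 to JUNB, 57 bp for SMAD2/3 to ATF3 and 39 bp for JUNB to ATF3.

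Members lay mostly away from gene ends. The summit of 387 members, 10.2% (9.29 to 11.2), was at most 1 kb from where a protein-coding gene starts or stops (a gene end), 41.6% were in the rest of a gene body, and 48.2% (46.6 to 49.8) outside. The share at gene ends was 19.5% over all SMAD2/3 sites. It was 13.4% of sites called in vehicle, 25.8% of sites with neither factor, 25.8% of those with ATF3 and without JUNB, 22.1% of those with JUNB and without ATF3, and 28.1% of those with MITF. The difference from sites with JUNB and without ATF3 was −11.9 points (−14.0 to −9.86). Of the 3639 members on chromosomes with promoter windows, 67.1% (65.5 to 68.6) were more than 10 kb from the nearest gene start. That share was 60.7% over all SMAD2/3 sites, 75.2% of sites called in vehicle and 51.4% to 57.5% in the remaining classes. Beyond 50 kb lay 27.8% of members and 27.9% of all sites. Within the members, 20.3% of those with neither factor in vehicle and 8.10% of those with both were at gene ends, and 1.504% of those with H3K27ac with TGFB1 alone. The nearest other member was a median 79.3 kb away, and 775 members (20.5%) had one within 10 kb.

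By gene, 2067 of 19974 protein-coding genes, 10.3%, had a member summit in the gene or within 10 kb, and 496 had more than 1. Long genes had one more often, 20.3% in the longest of 4 equal bins (median length 128 kb) and 5.47% in the shortest. TGF-beta targets, integrin and actin genes, YAP/TEAD genes and AP-1 genes had the highest shares among the 16 lists examined. An SMAD2/3 site of any class was found for 28.2% of all genes. In these lists it was 84.2%, 85.7%, 80% and 55%, in that order. Sites of any class include the members. Among genes with any site, a member was found for 65.6%, 66.7%, 58.3% and 81.8% in these lists, against 36.7% over all genes. The lists were chosen with results of these data known, and no list was tested. Each count is to be read beside the share over all genes. Gene length differed between lists, with medians from 6.86 kb (NF-kappaB and cytokine genes) to 124 kb (semaphorin and axon guidance genes).

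**Figure D4:**
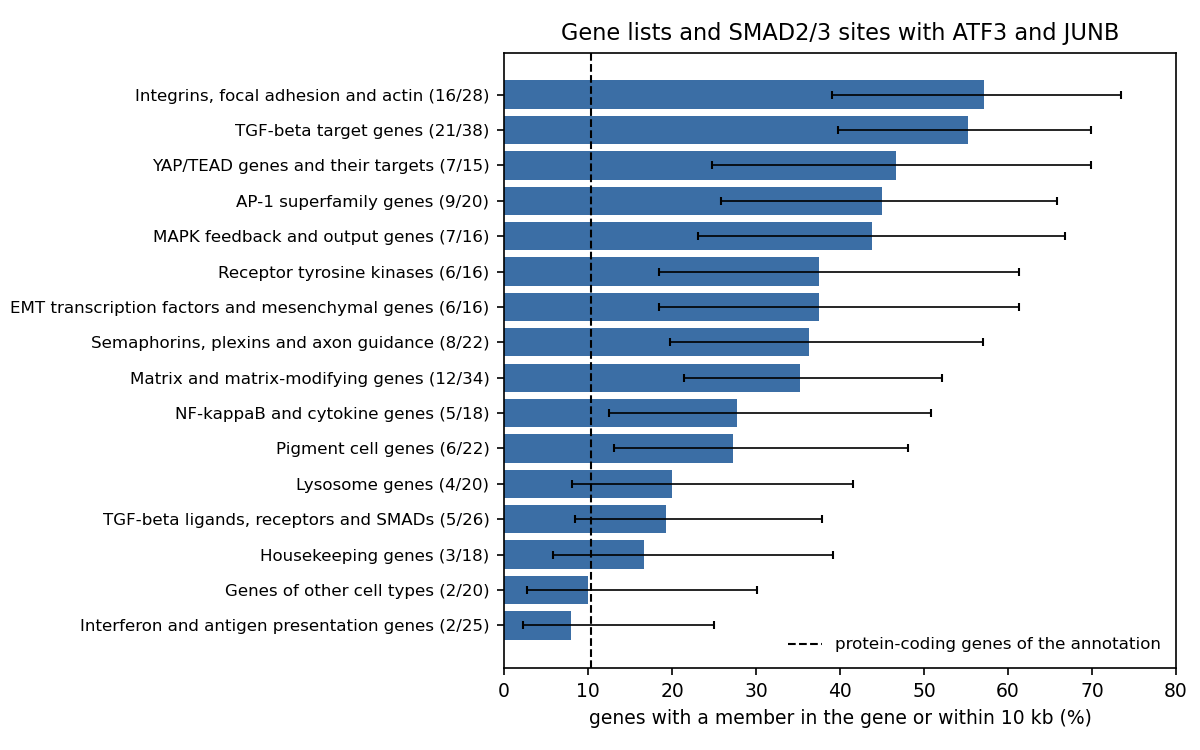
Share of each gene list with a member in the gene or within 10 kb (percent, horizontal axis), with 95% Wilson intervals over genes, the count in brackets and the share of all protein-coding genes, 10.3%, as a dashed line. Integrins, focal adhesion and actin (16 of 28) and TGF-beta targets (21 of 38) had the highest shares, and interferon and antigen presentation genes (2 of 25) the lowest.

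Among genes of the TGF-beta pathway itself, 5 of 26 ligands, receptors and SMADs had a member: TGFB1, TGFB2, TGFBR2, BMPR1B and SMAD3. TGFB2 had 2, both with H3K27ac with TGFB1 alone, and the stronger, at chr1:218377344-218377694, had an SMAD2/3 fold of 22.9, a JUNB fold of 23.4 with TGFB1 and 24.3 with vehicle, an ATF3 fold of 10.9 with TGFB1 alone and an H3K27ac fold of 16.3. Near TGFB1, the gene of the added ligand, the strongest of 3 members lay inside the neighbouring CCDC97 with an SMAD2/3 fold of 12.8 and a JUNB fold of 32.9 with TGFB1 and 17.9 with vehicle. SMAD3 had 5 members, up to a fold of 13.2, and TGFBR2, the type II receptor that binds the ligand, had 4, up to a fold of 13.2. TGFBR1, SMAD2 and SMAD4, on the same list, had no member, while 11 of the 26 genes had an SMAD2/3 site of any class. A median gene of this list was 52.7 kb long, so a share of 19.2% stands beside 20.3% for the longest bin of genes.

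Of 38 TGF-beta targets, 21 (55.3%) had a member, and the median gene of this list was 14.5 kb long. They included inhibitors of the pathway: SMAD7, which blocks the receptors, had 4 members up to an SMAD2/3 fold of 13.9, and SKI and SKIL, corepressors that bind SMADs, had 1 each at 12.4 and 3.62. PMEPA1 had 1 within 10 kb at 12.7 besides the stronger distant one above, and TGIF1, another corepressor, had 2 up to 15.3. Matrix and adhesion targets were LTBP2 with 3 members, LTBP3 with 2, TGFBI with 5, and ITGB6, an integrin subunit gene, with 2 up to a fold of 16.7. NEDD9, a scaffold of cell migration, had 4 up to 18.5, of which 2 had H3K27ac with TGFB1 alone. BHLHE40, a transcriptional repressor, had 4 up to 15.1. Others included ANGPTL4, CDKN1A, DACT1, HES1, ID1, IL11, KLF10, PTHLH and SNAI1. The SKI member at chr1:2234174-2234778 had a JUNB fold of 3.45 and an ATF3 fold of 5.37 with TGFB1 and neither factor in vehicle. All 3 members near LTBP2 and 4 of 5 near TGFBI had JUNB in vehicle, while the 1 at HES1, the 1 at SKI and both at ID1 had none.

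Of 20 AP-1 superfamily genes, 9 had a member: JUNB, JUND, FOSL1, FOSL2, ATF3, MAF, MAFF, MAFG and MAFK. Near JUNB the strongest of 3 members lay inside HOOK2 at chr19:12783859-12784452 with an SMAD2/3 fold of 18.9 and no overlapping JUNB or ATF3 peak in vehicle. Its JUNB peak of fold 35.6, at chr19:12782488-12784459, had its summit 1028 bp away and did touch a vehicle JUNB peak outside the SMAD2/3 interval. MAF, a leucine-zipper factor, held a member of SMAD2/3 fold 15.3 with H3K27ac of fold 8.91 with TGFB1 and none with vehicle. FOSL1, which encodes the FOS-family protein FRA1, had 2 up to a fold of 8.41, both with JUNB in vehicle. ATF3 held a member with an SMAD2/3 fold of 5.63 and H3K27ac in both treatments.

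Integrins, focal adhesion and actin genes had a member in 16 of 28 cases (57.1%), with a median length of 58.9 kb. PXN, the focal adhesion adaptor paxillin, held 2 up to an SMAD2/3 fold of 15.1, PALLD, the actin-bundling protein palladin, 3 up to 18.1, FLNA, the actin crosslinker filamin A, 2 up to 10.8, and the integrin genes ITGB3 and ITGB8 1 and 2 up to 12.7 and 13.2. ITGA3 had 4 and ACTN4, an actin crosslinker, 3, and JUNB was called in vehicle at each member of these 7 genes. On the same list ITGA1, CDC42EP3 and MYH9 each had a member without JUNB in vehicle. The PALLD member of fold 18.1 had no H3K27ac peak in either treatment. Matrix genes had one in 12 of 34 cases. MMP2 had 2 up to an SMAD2/3 fold of 20.8, COL4A2, a basement membrane collagen gene, had 3 up to 9.10, and PLAU, which encodes urokinase, had 1 at 9.09. Mesenchymal genes had one in 6 of 16: VIM, the intermediate filament vimentin, at 19.3, RUNX1 at 16.2 and RUNX2 at 12.2, beside CDH2, ETS1 and S100A4. At RUNX2 the ATF3 fold was 75.3 with TGFB1 and 36.2 with vehicle. A median gene of the mesenchymal list was 103 kb long. The interval of that list (18.5 to 61.4%) includes the 20.3% of the longest genes. SNAI2, ZEB1, ZEB2, TWIST1 and TWIST2 had no member, while 13 of the 16 mesenchymal genes had an SMAD2/3 site of any class.

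YAP/TEAD genes had a member in 7 of 15 cases, among them WWTR1 (the coactivator TAZ), YAP1 and TEAD1 of the core and AMOTL1 and AMOTL2, which hold YAP in the cytoplasm. MAPK feedback and output genes had one in 7 of 16. PHLDA1 had 3 up to an SMAD2/3 fold of 13.7, and SPRED2, an inhibitor of RAS signalling, had 4 up to 6.06, of which 3 had ATF3 in vehicle. Receptor tyrosine kinases had one in 6 of 16. IGF1R had 4 up to 11.4, EGFR 2 up to 8.94, MET 1 at 9.47, and ROR1 2 up to 9.97, both with H3K27ac with TGFB1 alone. Semaphorin and axon guidance genes had one in 8 of 22, among them NRP1 (2, up to 10.4) and SEMA3A (2, up to 9.89), whose stronger member had no H3K27ac peak. Of these 4 lists, the intervals of the receptor tyrosine kinases (18.5 to 61.4%) and of the axon guidance genes (19.7 to 57.0%) include the 20.3% of the longest genes.

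Pigment cell genes had a member in 6 of 22 cases: GPNMB, a melanosomal glycoprotein gene, at a fold of 14.6, OCA2 at 7.87, GPR143 at 6.26, MLPH at 4.92, and PMEL and CDK2, which share 1 site of fold 4.92. MITF, TYR, DCT and SOX10 had no member, and the rule left out sites with MITF. An SMAD2/3 site of any class was found for 14 of the 22 pigment cell genes. A median pigment cell gene was 74.5 kb long, and the interval of that list (13.2 to 48.2%) includes the 20.3% of the longest genes. NF-kappaB and cytokine genes had one in 5 of 18, lysosome genes in 4 of 20, housekeeping genes in 3 of 18, and interferon and antigen presentation genes in 2 of 25, CIITA at 16.3 and IFIT1 at 3.53. Of 20 genes of other cell types 2 had one, PTPRC of leukocytes at 15.8, without H3K27ac, and PECAM1 of endothelium at 7.95. The intervals of 5 lists include the 10.3% of all genes: the ligands, receptors and SMADs, the lysosome, housekeeping and interferon genes and the genes of other cell types.

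Several genes held clusters of members. VMP1, an autophagy gene, had the most, 9 of its 10 SMAD2/3 sites within 10 kb, with folds from 3.41 to 23.6. The strongest pair, 47.1 and 48.9 kb from the gene start at chr17:59754495-59754945 and chr17:59756240-59756785, had folds of 20.5 and 23.6. All but 1 of the 9 had JUNB in vehicle and 2 had ATF3, while 8 had H3K27ac in both treatments. WWTR1 had 8 with folds from 3.97 to 11.9, of which 6 had JUNB in vehicle, and each of its SMAD2/3 sites was a member. TENM3, a teneurin adhesion gene that spans 1355 kb, also had 8. AOPEP had 7 of 12 sites with folds from 4.91 to 33.4, of which 3 had H3K27ac with TGFB1 alone and none had ATF3 in vehicle. ME3, a malic enzyme gene, had 7 with folds from 4.48 to 13.0, all with H3K27ac in both treatments. ANXA2, the membrane-binding protein annexin A2, STRA6 and NIBAN2 had 6 each. Copy number of these regions in A375 was not measured here, and its part in their counts was not tested.

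**Figure D5:**
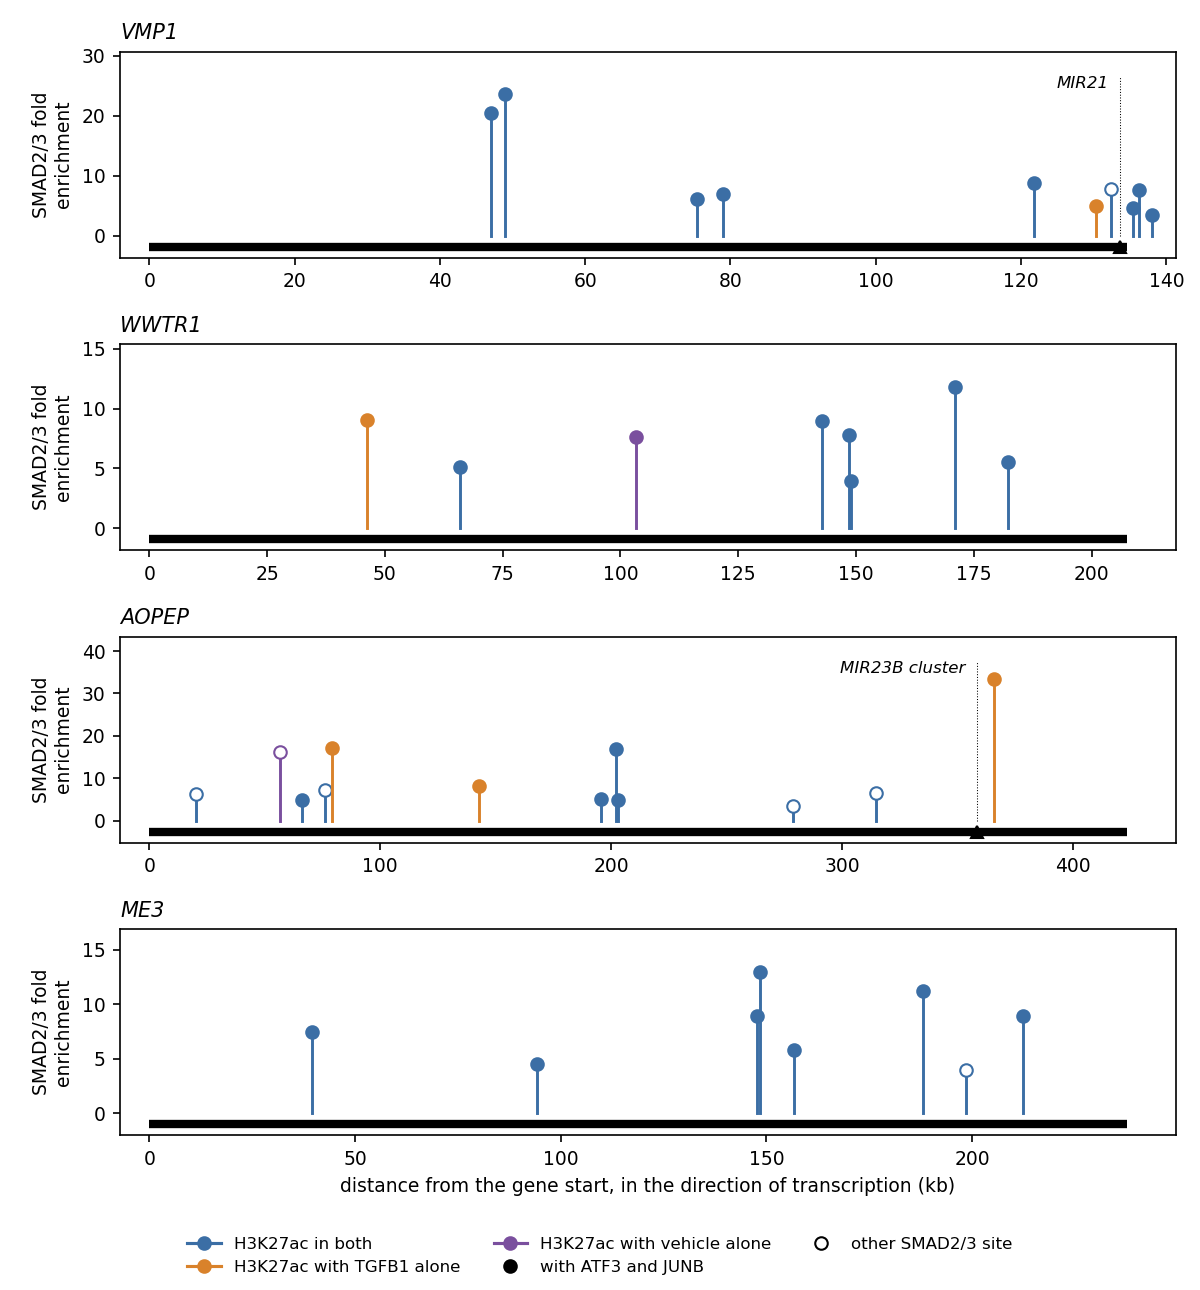
SMAD2/3 sites of TGFB1-treated cells along VMP1, WWTR1, AOPEP and ME3, by distance of the summit from the gene start in the direction of transcription (kb, horizontal axis) and SMAD2/3 fold enrichment (vertical axis, its own scale in each panel). Filled circles are members and open circles other sites, colours give H3K27ac, the black bar is the gene and triangles mark microRNA hairpins. The AOPEP member of fold 33.4 lies beyond the MIR23B cluster, with H3K27ac with TGFB1 alone.

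AOPEP and VMP1 host microRNAs, small RNAs that repress messenger RNAs paired with their seed. Over the annotation 87 of 1558 hairpins, 5.58%, had a member summit within 10 kb. The AOPEP member of fold 33.4 was the one of highest −log10 p among these. Its summit lay 7.22 kb from MIR23B, 6.98 kb from MIR27B and 6.44 kb from MIR24-1. MIR21, near the end of VMP1, had 4 members within 10 kb, of which the one of highest −log10 p, at chr17:59843636-59844490, was 2.53 kb away with an SMAD2/3 fold of 7.62. The mature RNAs (RefSeq, GRCh38.p14) are shown 5′ to 3′ with the seed, bases 2 to 8, in capitals, for the arms best known from these hairpins, and were chosen after the values were seen. They are encoded at chr9:95085265-95085287, chr9:95085505-95085525, chr9:95086064-95086085 and chr17:59841273-59841294, all on the plus strand. No 2 of them share a seed.
hsa-miR-23b-3p: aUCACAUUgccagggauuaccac
hsa-miR-27b-3p: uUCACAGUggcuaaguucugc
hsa-miR-24-3p: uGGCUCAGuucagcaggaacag
hsa-miR-21-5p: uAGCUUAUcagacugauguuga

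The related cluster of MIR23A, MIR27A and MIR24-2 on chromosome 19 also had 2 members within 10 kb, the one of higher −log10 p at chr19:13836923-13837179, 0.389 kb from MIR23A, with an SMAD2/3 fold of 6.02 and H3K27ac in both treatments.

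AP-1 letters were frequent in the promoter windows that held a member summit, and which letters were found differed with the vehicle state. Of 3639 members on chromosomes with windows, 209 (5.74%) had their summit in one. The heptamer, TGACTCA or TGAGTCA, was in 54 of these 209 windows, 25.8% (20.4 to 32.2), against 4.93% of all 34781 windows of this length. It was in 12.6% (8.76 to 17.9) of the 206 windows at sites with JUNB and without ATF3, in 0 of 40 (Wilson upper bound 8.76%) at sites with ATF3 and without JUNB, and in 2.46% (1.25 to 4.78) of the 325 at sites with neither. Windows overlapping H3K27ac in both treatments, with a median GC content of 66.3% close to the 65.7% of the members' windows, held it in 3.73%. The octamer TGACGTCA was in 20 of 209, 9.57% (6.28 to 14.3), against 1.84% of all windows and 3.04% of acetylated ones. It was in 4 of 40 windows, 10% (3.96 to 23.1), at sites with ATF3 and without JUNB, a share close to that of members. At sites with JUNB and without ATF3 the octamer was in 1.46% of windows, and at sites with neither in 2.15%. The octamer share was thus not particular to the members. Neither pattern contains the other.

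Where both factors were called in vehicle, 22 of 45 windows held the heptamer and 6 the octamer. Where JUNB alone was called in vehicle, 29 of 96 held the heptamer and 3 the octamer. Where neither was, 3 of 55 (5.45%) held the heptamer, close to all windows, and 9 (16.4%) the octamer. Where ATF3 alone was, 0 of 13 held the heptamer and 2 the octamer. The heptamer lay a median 31 bp from the SMAD2/3 summit (64 occurrences) and the octamer 74 bp (20 occurrences). The SMAD-type letters CAGACA or their reverse complement TGTCTG were in 40 windows, 19.1% (14.4 to 25.01), against 16.9% of all windows and 11.9% of acetylated ones. GGCGCC was in 29.2% (23.4 to 35.7), against 19.2% of all windows and 32.0% of acetylated ones, and GTCTAGAC in 1 of 209. These promoter windows are a small and unusual part of the members, since members lay mostly away from gene starts, and the letters at the other members were not read here.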

How the data were processed

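Chromatin immunoprecipitation sequencing of A375 cells gave 10 deposited peak lists, 1 for each of 5 antibodies with TGFB1 and with vehicle; 6 inputs were not analysed here. Reads were processed with Bowtie, MACS2 (version 2.0) and GRCh38, per the submitters' processing notes; the control used, the treatment of duplicates and the pooling of the technical triplicates are not given in the sources used here. Each peak carries a fold enrichment ratio, a −log10 p-value, a −log10 q-value and an integer score, all deposited by the authors and used within a list. The score was 10 times the −log10 q-value and was not used further.

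From these values each summit pileup was recovered as a whole number of reads within a tolerance of 0.005 in −log10 p, at 100% of peaks in each list, and a library size was implied from the lowest background, assuming a genome of 2.7 Gb. Depth sets which weak peaks could be called, and the precision of shares is given as 95% intervals over peaks.

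Peaks on chromosomes 1 to 22 and X were kept, identical intervals once. Classes were set by overlap of at least 1 bp, H3K27ac and vehicle peaks were counted the same way, and genes and promoter windows came from RefSeq tables (GRCh38.p14). With 1 library per group no p-value was computed. Genes were named by fixed rules: the 20 members of highest SMAD2/3 −log10 p with a gene within 100 kb, 8 with the strongest H3K27ac found with TGFB1 alone, 6 each by JUNB and ATF3 −log10 p, the 8 genes with most members, and up to 4 genes per list by the strongest member; further list genes are given to account for the lists. Members and lists were chosen with earlier results of these data known. Alternatives were stricter peaks, other overlap rules, equal list lengths and other gene windows. Overlap, intervals and read recovery were tested on simulated data. Python 3.11.15 was used with numpy 2.4.6, pandas 2.3.3, scipy 1.17.1 and matplotlib 3.10.9.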

Additional observations from a re-analysis of the deposited data

How the results depend on the processing

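Of the results that answer a comparison, 60 values under the alternatives kept their direction and stayed within the interval of the value reported or, for counts, within 1.5 times, 29 moved further and 5 reversed. With −log10 q of at least 5 in each list, H3K27ac in both treatments was at 66.1% of members and with TGFB1 alone at 11.99%, vehicle JUNB at 86.1%, vehicle ATF3 at 23.2%, gene ends at 7.33%, the distance of SMAD2/3 and JUNB summits was 37 bp, and the heptamer was in 35.5% of windows. With an overlap of at least 50% of the shorter peak, H3K27ac in both treatments was at 38.5%, vehicle ATF3 at 26.7%, gene ends at 9.17% and the distance 39 bp. With the summit inside the partner peak these were 34.7%, 24.3%, 8.79% and 36 bp. With the 30000 strongest ATF3 and JUNB peaks of each list there were 2420 members and 1347 genes, with H3K27ac in both treatments at 67.2%, vehicle JUNB at 90.7%, vehicle ATF3 at 30.7%, gene ends at 6.57%, a distance of 38 bp, the heptamer in 42.2%, and a vehicle JUNB difference from sites with JUNB and without ATF3 of 15.8 points. Without vehicle MITF sites 9.02% lay at gene ends, with gene ends of 5 kb 20.6% did, and a window of 50 kb gave 4097 genes.

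The difference between members and sites with neither factor in H3K27ac of both treatments reversed to −18.0 points with 50% overlap, −22.9 with the summit inside each partner peak, −2.35 with lists of 30000 peaks and −0.38 without gene-free stretches. Of 3 alternatives chosen after seeing the data, the summit inside H3K27ac gave −16.2 points, sites away from gene ends gave 9.77, and 4 bins of JUNB strength reduced the vehicle JUNB difference to 7.57 points. The cause was not tested. The difference in H3K27ac of both treatments kept its sign with −log10 q of at least 5 (0.46 points, −2.18 to 3.10) and without vehicle MITF sites (1.34, −0.84 to 3.53), with intervals that include 0. The difference in H3K27ac with TGFB1 alone, 3.08 points, stayed positive under the alternatives run, from 1.86 away from gene ends to 4.202. Of 112 counts for gene lists 100 stayed within 1.5 times the value reported. Weak peaks limit the calls, most of all for ATF3 in vehicle. No paired analysis was possible because each antibody and treatment has 1 library.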
